A study of Mus musculus with 12 samples.

Results

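Pyruvate dehydrogenase, the tricarboxylic acid (TCA) cycle and the reactions that feed or drain the cycle were followed here through 38 genes, taken by symbol from a fixed list out of 24421 counted gene symbols. They comprise 5 genes for subunits of the pyruvate dehydrogenase complex, 7 for the kinases and phosphatases that switch it, 13 for mitochondrial enzymes of the cycle, 3 for cytosolic counterparts of cycle enzymes, 7 for enzymes by which carbon enters or leaves the cycle, and 3 for the aspartate transaminases and the transhydrogenase. Messenger RNA was sequenced from Min6, a mouse insulinoma line that serves as a model of the pancreatic beta cell. The sh-Il22ra1 group (6 libraries) was infected for 48 h with an adenovirus that knocks down Il22ra1, the gene of the interleukin-22 receptor's alpha chain, and the sh-ctrl group (6 libraries) with a control adenovirus. Both groups received 0.3 mM PA (palmitate, a saturated fatty acid) for 24 h, so untreated cells were no part of the comparison, and both are labelled WT for genotype. The titles call the control libraries GFP, and in replicates 2 to 6 of sh-Il22ra1 the treatment label raises the digit that ends the gene's name along with the replicate; these libraries were kept in the group their titles give. The question was which transcripts differ when Il22ra1 is reduced in cells under palmitate. The libraries come from 1 cell line, and the labels do not say whether the replicates were separate cultures, so every p-value measures the spread between these libraries, which may be technical.

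Pyruvate made by glycolysis enters the mitochondrion and is used in either of 2 ways in the beta cell: pyruvate dehydrogenase turns it into acetyl-CoA, and pyruvate carboxylase turns it into oxaloacetate. Kinases of the PDK family switch the dehydrogenase off by phosphorylating its alpha subunit, and the phosphatases Pdp1 and Pdp2 switch it on again. The cycle then supplies NADH for respiration, while intermediates leave it for the cytosol and return, a traffic that is known to support insulin secretion.

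Reads in genes ranged from 14408576 to 15595603 in sh-Il22ra1 and from 13108494 to 15887448 in sh-ctrl libraries. Il22ra1 had 15 reads over the 6 sh-Il22ra1 libraries, against 74 over the 6 sh-ctrl libraries, and every sh-Il22ra1 library lay below every sh-ctrl library (p = 0.00216, two-sided exact permutation test, the smallest p that 6 against 6 allows). Reads without an alignment took 8.71% to 11.8% of sh-Il22ra1 and 12.8% to 17.3% of sh-ctrl libraries (exact permutation adjusted p = 0.00758 over 7 library measures). Reads that fit more than 1 gene took 2.00% to 2.13% of sh-Il22ra1 and 1.81% to 1.93% of sh-ctrl libraries (exact permutation adjusted p = 0.00758), and reads aligned to several places 4.11% to 4.40% of sh-Il22ra1 and 3.76% to 4.12% of sh-ctrl libraries (exact permutation adjusted p = 0.0101). The other 4 measures did not pass, and the part of these differences in the results was not tested. Sh-ctrl replicates 1 and 4 lay highest among the sh-ctrl libraries on the second principal component (18.2 and 31.9, the others spread from -17.7 to -0.126). Calls that change without these replicates are given with both values. All 10 beta-cell markers were detected, with a summed level of 63626 to 72805 CPM in sh-Il22ra1 and 71052 to 107968 CPM in sh-ctrl, where CPM (counts per 1000000 reads in genes) were scaled by TMM factors; 6 of the 10 were lower in sh-Il22ra1, 1 was higher and 3 did not pass. Markers of other islet cells summed to 145 to 158 CPM in sh-Il22ra1 and 243 to 295 CPM in sh-ctrl, nearly all of it Gcg, and 3 of 6 acinar markers had no read. The 5 fibroblast markers summed to 1.04 to 2.13 CPM in sh-Il22ra1 and 3.09 to 6.34 CPM in sh-ctrl, and the 4 leukocyte markers to 5.83 to 9.58 CPM in sh-Il22ra1 and 18.5 to 27.1 CPM in sh-ctrl, mostly Cd68. Of the other leukocyte markers, Lyz2 had 94 reads in sh-Il22ra1 and 72 in sh-ctrl and did not pass. In the same order, Ptprc had 8 and 3 reads and Adgre1 4 and 8. The 3 duct markers stayed between 0.202 and 2.00 CPM and the 3 endothelial markers between 1.47 and 4.62 CPM over both groups. The part of these markers in the results was not tested. CPM are shares of a library, and fewer cells of a type cannot be told apart from less RNA per cell.

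Of the 38 genes, 36 had enough reads to be tested; 16 were higher and 9 lower in sh-Il22ra1 at an adjusted p under 0.05 (edgeR, quasi-likelihood, adjusted over all tested genes after Benjamini and Hochberg), and 11 did not pass. The same call was made for 51.9% of the 13102 genes tested in these libraries, 25.4% higher and 26.5% lower, so a call by itself is common here; among the tested members 69.4% were called, 44.4% higher and 25.0% lower. The median log2 fold change (sh-Il22ra1 over sh-ctrl) was 0.10 over the tested members and -0.0043 over all genes tested. No tested member changed by over 2-fold, whereas 638 of all genes tested did. The groups did not overlap, every library of one lying beyond every library of the other, in 13 members that were higher and 6 that were lower, in all 19 of 36, against 13.5% higher, 14.6% lower and 28.1% in either direction among all genes tested. Of the 5 subunit genes of the dehydrogenase complex 4 were higher and none lower, and of its 6 tested regulators 3 were lower, none was higher and 3 did not pass. The cycle enzymes (6 higher, 2 lower), the enzymes of carbon entry and exit (3 higher, 2 lower) and the transaminases with the transhydrogenase (1 higher, 2 lower) held both directions. Whether the roles differed was not tested.

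**Figure D1:**
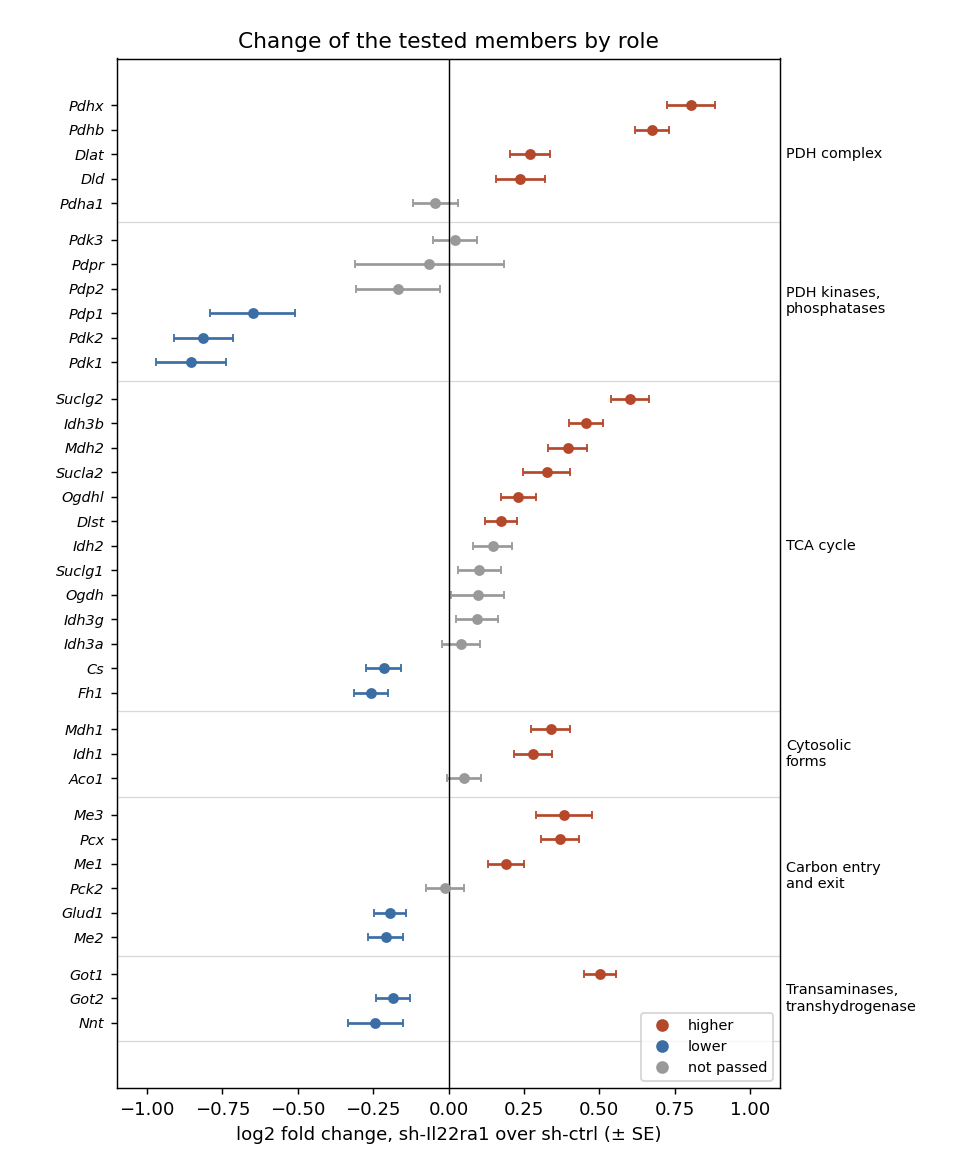
Log2 fold change of the 36 tested members, sh-Il22ra1 over sh-ctrl, with bars of ± 1 SE, grouped by role; colour marks genes that were higher, lower or missed an edgeR adjusted p of 0.05. Pdhx and Pdhb lie farthest to the right and Pdk1 and Pdk2 farthest to the left.

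The pyruvate dehydrogenase complex changed unevenly, with strong rises in Pdhb and Pdhx and no call for Pdha1. Pdhb encodes the beta subunit of the decarboxylase that starts the reaction. It ran from 256 to 269 CPM with a median of 266 in sh-Il22ra1 libraries, against 154 to 189 CPM with a median of 163 in sh-ctrl libraries. All sh-Il22ra1 libraries were above all sh-ctrl libraries, by a log2 fold change of 0.67 (SE 0.0563, edgeR adjusted p = 1.75e-08). Pdhx, the component X that anchors dihydrolipoamide dehydrogenase to the core, ran from 45.4 to 57.6 CPM (median 54.7) in sh-Il22ra1, against 27.8 to 36.4 CPM (median 29.4) in sh-ctrl. That was the largest rise among the tested members, 1.75-fold (log2 0.80, SE 0.0791, edgeR adjusted p = 1.39e-07), again without overlap. Dlat, the acetyltransferase that forms the core, had 65.0 to 74.9 CPM (median 66.7) in sh-Il22ra1, against 48.5 to 61.8 CPM (median 57.8) in sh-ctrl. Its groups were also apart, but the rise was small (log2 0.27, SE 0.0658, edgeR adjusted p = 0.00211).

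Dld encodes the dihydrolipoamide dehydrogenase that this complex shares with the 2-oxoglutarate and branched-chain dehydrogenases. It was higher with overlapping groups, 62.2 to 80.1 CPM in sh-Il22ra1 and 53.4 to 73.1 CPM in sh-ctrl (log2 0.24, SE 0.0822, edgeR adjusted p = 0.0210), and the call ended without sh-ctrl replicate 6 (adjusted p = 0.0516) or sh-Il22ra1 replicate 1 (adjusted p = 0.0508). Pdha1, the X-linked alpha subunit that carries the phosphorylation sites, had 31.2 to 37.2 CPM in sh-Il22ra1 and 30.6 to 39.1 CPM in sh-ctrl (log2 -0.04, SE 0.0748), ranges that nearly coincide. Of its exon bases 16.1% overlap Map3k15 on the other strand, and the strand setting of the counting is not given in the sources used here. Whether the 2 subunits of the decarboxylase differed in response was tested on their ratio within each library. All ratios here are of CPM + 0.5, averaged as geometric means and not divided by transcript length, so they compare groups and not the levels of the genes. The ratio of Pdhb to Pdha1 was 7.65 in sh-Il22ra1 and 4.66 in sh-ctrl, a difference of 0.71 on the log2 scale (SE 0.0973) that left no overlap between groups (exact permutation p = 0.00216, adjusted over 16 pairs of related genes 0.00577). The ratio of Pdhx to Dlat, both parts of the core, was also higher, 0.784 in sh-Il22ra1 and 0.545 in sh-ctrl (log2 difference 0.52, SE 0.113, exact permutation p = 0.00649, adjusted 0.0115), although sh-ctrl replicate 4 reached into the sh-Il22ra1 range.

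**Figure D2:**
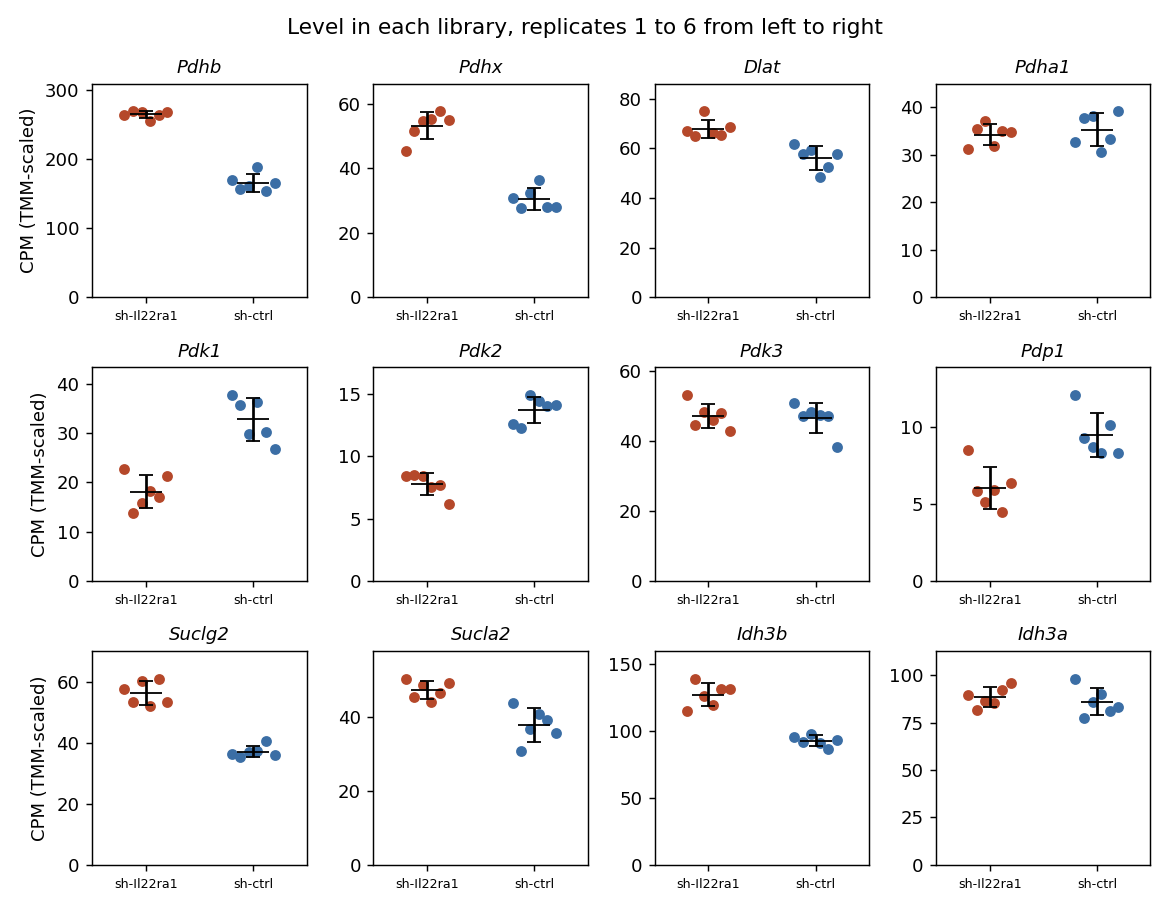
CPM in each library for 4 subunit genes (top row), 4 regulators (middle row) and 4 cycle genes (bottom row), with sh-Il22ra1 on the left and sh-ctrl on the right of each panel; points are replicates 1 to 6, and the bar gives mean ± SD (n = 6). Pdhb, Pdhx, Dlat, Suclg2, Sucla2 and Idh3b lie higher and Pdk1 and Pdk2 lower in sh-Il22ra1 without overlap, while Pdha1, Pdk3, Pdp1 and Idh3a overlap.

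Among the kinases that inactivate the complex, Pdk1 and Pdk2 fell, Pdk3 did not pass and Pdk4 had no read. Pdk1, a kinase known as a target of the hypoxia factor HIF1, ran from 13.8 to 22.6 CPM (median 17.6) in sh-Il22ra1 libraries, against 26.7 to 37.6 CPM (median 33.0) in sh-ctrl libraries. The groups were apart, with a level 1.81-fold lower in sh-Il22ra1 (log2 -0.85, SE 0.115, edgeR adjusted p = 6.51e-06). Pdk2, the most widely expressed kinase of the family in mammals, ran from 6.17 to 8.48 CPM (median 8.06) in sh-Il22ra1, against 12.3 to 14.9 CPM (median 14.1) in sh-ctrl. It was 1.76-fold lower (log2 -0.81, SE 0.0975, edgeR adjusted p = 1.61e-06), also without overlap. Pdk3 had 42.8 to 52.9 CPM (median 46.9) in sh-Il22ra1 and 38.1 to 50.7 CPM (median 47.2) in sh-ctrl, with a log2 fold change of 0.02 (SE 0.0733). Pdk4, which fasting and fatty acids induce in muscle and heart, had 0 reads in all 12 libraries, which allows up to 0.0332 CPM over the sh-Il22ra1 libraries and 0.0343 CPM over the sh-ctrl libraries (3 reads per group, counting error only). The ratio of Pdk3 to Pdk2 was 5.75 in sh-Il22ra1 and 3.29 in sh-ctrl (log2 difference 0.80, SE 0.0969, exact permutation p = 0.00216, adjusted over the 16 pairs 0.00577). Pdk1 and Pdk2 were not told apart by the same test (log2 difference of their ratio -0.07, SE 0.187, exact permutation p = 0.725, adjusted 0.725). Per kb of exon, Pdk3 made up 79.3% ± 0.779 of the summed Pdk level in sh-Il22ra1 and 67.9% ± 1.54 in sh-ctrl (SD, n = 6 each), and the ranges, 78.1% to 80.1% and 65.3% to 69.2%, did not meet. The summed Pdk level was 23.2 ± 1.72 CPM per kb in sh-Il22ra1 and 26.6 ± 2.02 CPM per kb in sh-ctrl, with overlapping ranges.

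The phosphatases that reactivate the complex were expressed at low levels. Pdp1, the calcium-stimulated catalytic subunit, had 4.495 to 8.49 CPM (median 5.88) in sh-Il22ra1 and 8.33 to 12.1 CPM (median 9.01) in sh-ctrl. It was 1.57-fold lower (log2 -0.65, SE 0.141, edgeR adjusted p = 0.000836), with sh-Il22ra1 replicate 1 at the level of the lowest sh-ctrl libraries. Pdp2, the second catalytic subunit, had 4.18 to 5.48 CPM in sh-Il22ra1 and 4.001 to 7.05 CPM in sh-ctrl (log2 -0.17, SE 0.140) and did not pass. The ratio of Pdp2 to Pdp1 gave a log2 difference of 0.49 (SE 0.228, exact permutation p = 0.0693, adjusted 0.111), and passed without sh-Il22ra1 replicate 1 (0.62, exact permutation adjusted p = 0.0242) or without sh-ctrl replicate 6 (0.60, exact permutation adjusted p = 0.0381). Pdpr, the regulatory subunit of the phosphatase, varied most among the tested members within sh-ctrl, with 2.83 to 9.98 CPM there and 4.52 to 7.09 CPM in sh-Il22ra1 (log2 -0.06, SE 0.248). Its lowest sh-ctrl values came from replicates 1 and 4, and without them the log2 fold change was -0.39 (edgeR adjusted p = 0.0502).

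In the mitochondrial cycle itself, 6 of 13 genes rose, 2 fell and 5 did not pass, beside calls for 51.9% of all genes tested. The median log2 fold change of the 13 cycle genes was 0.15. The larger rises were in succinyl-CoA ligase and 1 subunit of NAD-dependent isocitrate dehydrogenase, and on malate dehydrogenase. Suclg2, the beta subunit of the ligase that makes GTP, ran from 52.4 to 61.0 CPM (median 55.8) in sh-Il22ra1, against 35.6 to 40.7 CPM (median 36.6) in sh-ctrl. It rose 1.52-fold without overlap (log2 0.60, SE 0.0627, edgeR adjusted p = 2.85e-07). Sucla2, the beta subunit of the form that makes ATP, had 44.0 to 50.2 CPM (median 47.5) in sh-Il22ra1 and 30.7 to 43.8 CPM (median 37.9) in sh-ctrl, and rose by less (log2 0.33, SE 0.0771, edgeR adjusted p = 0.00170). The ratio of Suclg2 to Sucla2 was 1.19 in sh-Il22ra1 and 0.990 in sh-ctrl (log2 difference 0.27, SE 0.0765, exact permutation p = 0.00649, adjusted 0.0115), a call that ended without sh-ctrl replicates 1 and 4 (0.18, exact permutation adjusted p = 0.0533). Suclg1, the alpha subunit that both forms share, did not pass (65.7 to 74.7 CPM in sh-Il22ra1, 57.5 to 78.8 CPM in sh-ctrl; log2 0.10, SE 0.0708), and passed when sh-ctrl replicate 4 was left out (0.15, edgeR adjusted p = 0.0347) or replicates 1 and 4 together (0.18, edgeR adjusted p = 0.0128).

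NAD-dependent isocitrate dehydrogenase is built from a catalytic subunit, Idh3a, and the subunits Idh3b and Idh3g. Idh3b ran from 115 to 139 CPM (median 129) in sh-Il22ra1, against 86.4 to 98.2 CPM (median 92.7) in sh-ctrl. It rose 1.37-fold without overlap (log2 0.46, SE 0.0575, edgeR adjusted p = 2.96e-06). Idh3a stayed at 81.6 to 96.0 CPM in sh-Il22ra1 and 77.5 to 97.9 CPM in sh-ctrl (log2 0.04, SE 0.0636), and Idh3g at 209 to 274 CPM in sh-Il22ra1 and 198 to 242 CPM in sh-ctrl (log2 0.09, SE 0.0690); neither passed. Whether the changes were unequal was tested on ratios from the same counts, which are not separate evidence. The ratio of Idh3b to Idh3a was 1.44 in sh-Il22ra1 and 1.08 in sh-ctrl (log2 difference 0.41, SE 0.0697). That of Idh3b to Idh3g was 0.547 in sh-Il22ra1 and 0.426 in sh-ctrl (log2 difference 0.36, SE 0.0660). Both had an exact permutation p of 0.00216 (adjusted 0.00577) and groups without overlap. The ratio of Idh3g to Idh3a did not pass (log2 difference 0.05, SE 0.0913, exact permutation p = 0.654, adjusted 0.697). Idh2, the mitochondrial NADP-dependent enzyme, had 476 to 529 CPM in sh-Il22ra1 and 396 to 534 CPM in sh-ctrl (log2 0.15, SE 0.0655, edgeR adjusted p = 0.0681). It passed without sh-ctrl replicate 4, the highest sh-ctrl library (0.19, edgeR adjusted p = 0.00491), without replicates 1 and 4 together (0.20, edgeR adjusted p = 0.00218), and with offsets for transcript length and GC content (0.17, edgeR adjusted p = 0.00448).

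The 2-oxoglutarate dehydrogenase complex, which makes succinyl-CoA, showed small changes. Ogdhl, an isoform of its first component, had 246 to 273 CPM (median 251) in sh-Il22ra1 and 185 to 230 CPM (median 224) in sh-ctrl and rose without overlap (log2 0.23, SE 0.0592, edgeR adjusted p = 0.00301). Ogdh, the main isoform in most tissues, had 275 to 325 CPM in sh-Il22ra1 and 226 to 326 CPM in sh-ctrl (log2 0.10, SE 0.0874) and did not pass, but passed with length and GC offsets (0.17, edgeR adjusted p = 0.0370) and had a log2 fold change of -0.05 without sh-ctrl replicates 1 and 4. Replicates 1 and 4 were the 2 lowest sh-ctrl libraries for Ogdh, at 226 and 233 CPM. Dlst, the succinyltransferase core of the complex, rose slightly, 193 to 216 CPM in sh-Il22ra1 and 170 to 195 CPM in sh-ctrl (log2 0.18, SE 0.0532, edgeR adjusted p = 0.0101). The 2 isoforms were at similar levels per kb of exon, 61.7 ± 2.75 CPM per kb for Ogdhl and 55.8 ± 3.26 for Ogdh in sh-Il22ra1, against 52.5 ± 3.95 for Ogdhl and 52.2 ± 8.29 for Ogdh in sh-ctrl (SD, n = 6 each). Their ratio gave a log2 difference of 0.12 (SE 0.0767, exact permutation p = 0.136, adjusted 0.156), which passed without sh-ctrl replicate 4 (0.18, exact permutation adjusted p = 0.0416) or without replicates 1 and 4 together (0.21, exact permutation adjusted p = 0.0254).

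The enzymes on either side of oxaloacetate moved in opposite directions. Mdh2, mitochondrial malate dehydrogenase, ran from 630 to 747 CPM (median 672) in sh-Il22ra1, against 462 to 569 CPM (median 521) in sh-ctrl. It rose 1.31-fold without overlap (log2 0.39, SE 0.0641, edgeR adjusted p = 5.20e-05). Cs, citrate synthase, which joins oxaloacetate with acetyl-CoA, fell, at 264 to 284 CPM (median 272) in sh-Il22ra1 and 276 to 350 CPM (median 319) in sh-ctrl. The groups met only at the lowest sh-ctrl library, replicate 4 (log2 -0.22, SE 0.0594, edgeR adjusted p = 0.00531). Fh1, fumarase, which supplies malate, had 247 to 275 CPM (median 254) in sh-Il22ra1 and 277 to 338 CPM (median 310) in sh-ctrl and fell without overlap (log2 -0.26, SE 0.0568, edgeR adjusted p = 0.000998).

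Promoter sequences of the members were searched for chosen motifs as a description, with no test. RefSeq windows of 250 bases before to 50 bases after a transcript start (GRCm38.p6) were at hand for 34 of the 38 genes, in 44 windows; Pdp1, Idh3a, Me2 and Nnt are not among them. TNAAGGTCA, the element bound by estrogen-related receptors, was in 0 of the 44 windows on either strand and in 1.28% of all 32851 windows. The NRF1 motif was in 2 windows (4.55%, Dld and Sucla2) against 4.60% of all windows, and ACTTCCGG, an ETS motif read by GABP, in 1 (2.27%, Dlst) against 3.89%. TGACGTCA, the cyclic AMP response element, was in 5 windows (11.4%), of which 3 were overlapping windows of Ogdh and the others those of Mdh2 and Pdpr, against 1.79% of all windows. Among windows of the genes tested in these libraries the shares were 0.708%, 9.60%, 7.67% and 3.17% in the same order of motifs. Both strands were searched, and a match is a match of letters, not a site. The 3 members that rose and hold a match between 200 bases before and 30 bases after the start are shown on the plus strand, 5′ to 3′, with the match in capitals: Mdh2 at chr5:135778449-135778678 (TGACGTCA), Sucla2 at chr14:73552586-73552815 (NRF1) and Dlst at chr12:85110633-85110862 (ACTTCCGG).
Mdh2: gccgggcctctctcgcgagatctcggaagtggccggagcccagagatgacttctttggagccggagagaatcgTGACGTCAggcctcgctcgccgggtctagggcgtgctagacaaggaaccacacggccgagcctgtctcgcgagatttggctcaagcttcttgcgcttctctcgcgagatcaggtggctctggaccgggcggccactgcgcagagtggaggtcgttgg
Sucla2: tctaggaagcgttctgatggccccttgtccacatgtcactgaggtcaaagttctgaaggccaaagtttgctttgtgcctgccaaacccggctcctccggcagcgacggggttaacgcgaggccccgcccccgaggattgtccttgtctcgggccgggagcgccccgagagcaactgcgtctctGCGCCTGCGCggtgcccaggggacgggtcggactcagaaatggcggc
Dlst: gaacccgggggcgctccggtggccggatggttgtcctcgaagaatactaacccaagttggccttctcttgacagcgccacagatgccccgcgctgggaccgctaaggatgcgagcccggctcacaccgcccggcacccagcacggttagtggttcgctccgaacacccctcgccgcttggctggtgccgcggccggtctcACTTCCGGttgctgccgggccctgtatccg

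Of the cytosolic counterparts of cycle enzymes, 2 rose and 1 did not pass, beside calls for 51.9% of all genes tested. Mdh1, the malate dehydrogenase of the malate-aspartate shuttle, had 421 to 497 CPM (median 455) in sh-Il22ra1 and 321 to 414 CPM (median 357) in sh-ctrl and rose without overlap (log2 0.34, SE 0.0640, edgeR adjusted p = 0.000235). Idh1, a source of cytosolic NADPH, had 51.1 to 58.5 CPM (median 55.6) in sh-Il22ra1 and 41.2 to 50.5 CPM (median 45.3) in sh-ctrl (log2 0.28, SE 0.0621, edgeR adjusted p = 0.000979). Aco1, the cytosolic aconitase that also acts as an iron regulatory protein, had 87.1 to 96.0 CPM in sh-Il22ra1 and 78.5 to 95.9 CPM in sh-ctrl (log2 0.05, SE 0.0576). The mitochondrial and cytosolic forms of malate dehydrogenase and of NADP-dependent isocitrate dehydrogenase were not told apart in response. The log2 difference was 0.05 (SE 0.0285, exact permutation p = 0.0931, adjusted 0.135) for the ratio of Mdh2 to Mdh1 and -0.13 (SE 0.0739, exact permutation p = 0.121, adjusted 0.149) for that of Idh2 to Idh1. The Idh ratio passed without sh-Il22ra1 replicate 2 (-0.17, exact permutation adjusted p = 0.0242).

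Among the enzymes by which carbon enters or leaves the cycle, 3 rose, 2 fell, 1 did not pass and 1 was too low to test. Calls were made for 51.9% of all genes tested. Pcx, pyruvate carboxylase, the main anaplerotic enzyme of beta cells, ran from 306 to 368 CPM (median 334) in sh-Il22ra1, against 221 to 277 CPM (median 265) in sh-ctrl. It rose 1.29-fold without overlap (log2 0.37, SE 0.0628, edgeR adjusted p = 8.14e-05), so both routes into the cycle had a transcript that was higher. The rise of Pdhb was larger than that of Pcx: the ratio of Pcx to Pdhb was 1.26 in sh-Il22ra1 and 1.56 in sh-ctrl (log2 difference -0.30, SE 0.0761, exact permutation p = 0.00649, adjusted 0.0115). That comparison covers Pdhb alone and not the whole complex. Pdhx (log2 0.80) also rose by more than Pcx, whereas Dlat (0.27), Dld (0.24) and Pdha1 (-0.04, not passed) lay below it. The ratios of Pcx to these other subunits were not tested. Malic enzymes return malate to pyruvate and differed by isoform. Me1, the cytosolic NADP-dependent form, was higher with overlap, 149 to 184 CPM in sh-Il22ra1 and 142 to 160 CPM in sh-ctrl (log2 0.19, SE 0.0608, edgeR adjusted p = 0.0134). Me2, the mitochondrial NAD-dependent form, fell without overlap, at 57.1 to 70.0 CPM (median 65.3) in sh-Il22ra1 and 71.2 to 77.8 CPM (median 74.8) in sh-ctrl (log2 -0.21, SE 0.0578, edgeR adjusted p = 0.00547). Me3, the mitochondrial NADP-dependent form, rose, at 12.8 to 17.4 CPM (median 14.4) in sh-Il22ra1 and 10.5 to 12.2 CPM (median 11.6) in sh-ctrl (log2 0.38, SE 0.0926, edgeR adjusted p = 0.00194). The ratio of Me2 to Me1 was 0.382 in sh-Il22ra1 and 0.503 in sh-ctrl without overlap (log2 difference -0.40, SE 0.0640, exact permutation p = 0.00216, adjusted 0.00577), whereas Me3 and Me1 were not told apart (log2 difference of their ratio 0.18, SE 0.102, exact permutation p = 0.104, adjusted 0.139).

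Phosphoenolpyruvate carboxykinase takes oxaloacetate out of the cycle and was present as its mitochondrial form. Pck2 had 443 to 518 CPM in sh-Il22ra1 and 425 to 517 CPM in sh-ctrl and did not pass (log2 -0.01, SE 0.0628). Pck1, the cytosolic form of gluconeogenic tissues, had 17 reads over the sh-Il22ra1 and 8 over the sh-ctrl libraries, a ratio of 2.06 whose exact 95% interval, 0.844 to 5.52, reflects counting error alone. Glud1, the glutamate dehydrogenase through which leucine stimulates insulin release, fell without overlap, with 86.2 to 93.9 CPM (median 90.1) in sh-Il22ra1 and 97.3 to 110 CPM (median 102) in sh-ctrl (log2 -0.19, SE 0.0533, edgeR adjusted p = 0.00522).

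The aspartate transaminases, which carry the nitrogen side of the malate-aspartate shuttle, moved apart. Got1, the cytosolic form, ran from 133 to 146 CPM (median 138) in sh-Il22ra1, against 90.1 to 104 CPM (median 98.9) in sh-ctrl. It rose 1.42-fold without overlap (log2 0.50, SE 0.0540, edgeR adjusted p = 4.15e-07). Got2, the mitochondrial form, was lower without overlap, 301 to 324 CPM in sh-Il22ra1 and 326 to 396 CPM in sh-ctrl (log2 -0.18, SE 0.0559, edgeR adjusted p = 0.0101), a call that ended with length and GC offsets (-0.10, edgeR adjusted p = 0.0996). An antisense gene, Gm45760, covers 9.0% of the exon bases of Got2. The ratio of Got2 to Got1 was 2.22 in sh-Il22ra1 and 3.57 in sh-ctrl, the largest of the falls among the 16 ratios (log2 difference -0.68, SE 0.0462, exact permutation p = 0.00216, adjusted 0.00577). Nnt, the transhydrogenase that uses the proton gradient to make mitochondrial NADPH, was lower, 28.9 to 35.3 CPM in sh-Il22ra1 and 31.5 to 44.3 CPM in sh-ctrl (log2 -0.24, SE 0.0914, edgeR adjusted p = 0.0331). That call depended on single libraries: it ended when any of sh-ctrl replicates 2, 3, 5 and 6 or sh-Il22ra1 replicates 2, 4 and 6 was left out (edgeR adjusted p up to 0.0877), and without sh-ctrl replicates 1 and 4, its 2 lowest there, the log2 fold change was -0.38.

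**Figure D3:**
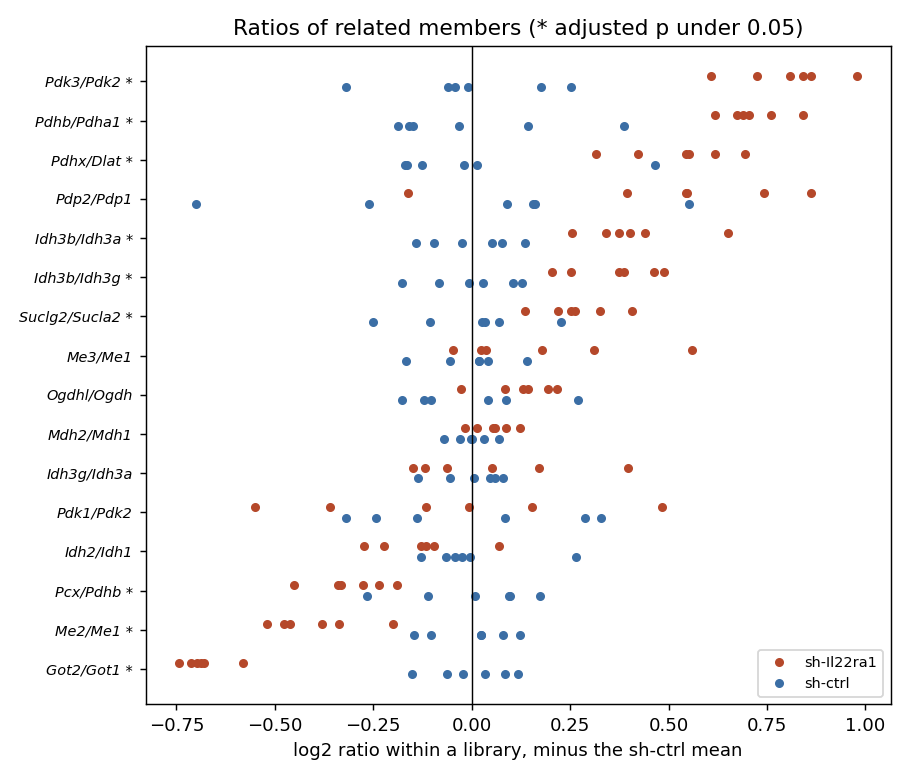
Log2 ratio of CPM + 0.5 of 16 pairs of related genes within each library, minus the mean of the sh-ctrl libraries; each point is a library (6 of sh-Il22ra1 above, 6 of sh-ctrl below), and asterisks mark an adjusted p under 0.05 in a two-sided exact permutation test. Pdk3/Pdk2 and Pdhb/Pdha1 are shifted most to the right and Got2/Got1 most to the left.

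In all, 9 of the 16 ratios passed the exact permutation test after adjustment over the pairs, and in 6 of them the groups did not overlap. No share over pairs of other genes was computed, so these counts cannot be read as particular to this pathway. Taken singly, 51.9% of all genes tested were called and 28.1% had groups without overlap. The 7 that did not pass were Pdk1/Pdk2, Pdp2/Pdp1, Idh2/Idh1, Idh3g/Idh3a, Ogdhl/Ogdh, Mdh2/Mdh1 and Me3/Me1. The pairs with Pdk4 and Pck1 were left out because of too few reads.

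Levels of different genes were ordered per kb of exon; the ratios above are not divided by length and were compared only between groups. In sh-Il22ra1, Idh2 with 192 ± 8.50 CPM per kb (SD, n = 6), Mdh2 with 192 ± 13.0 and Mdh1 with 178 ± 9.61 led with overlapping spreads, before Idh3g with 86.4 ± 8.52 and Fh1 with 75.9 ± 3.07. In sh-ctrl, Idh2 was first with 174 ± 17.9 CPM per kb, followed by Mdh2 with 146 ± 11.5 and Mdh1 with 141 ± 12.8, neighbours whose spreads overlap, and then by Fh1 with 90.6 ± 6.34 and Idh3g with 81.0 ± 6.0004. Pdhb was seventh in sh-Il22ra1 with 68.6 ± 1.32 CPM per kb and twelfth in sh-ctrl with 43.0 ± 3.35. Subunits of a complex differed widely in level: in sh-ctrl the other subunits of the dehydrogenase ranged from 7.76 CPM per kb for Pdhx to 16.9 for Dld, below Pdhb in both groups. At the low end were Pdp1, Pdpr, Pdp2 and Me3, at 0.839 to 1.34 CPM per kb in sh-Il22ra1 and 0.785 to 2.11 in sh-ctrl. These levels use the union of all annotated exons as length, which understates genes with long rarely used exons.

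**Figure D4:**
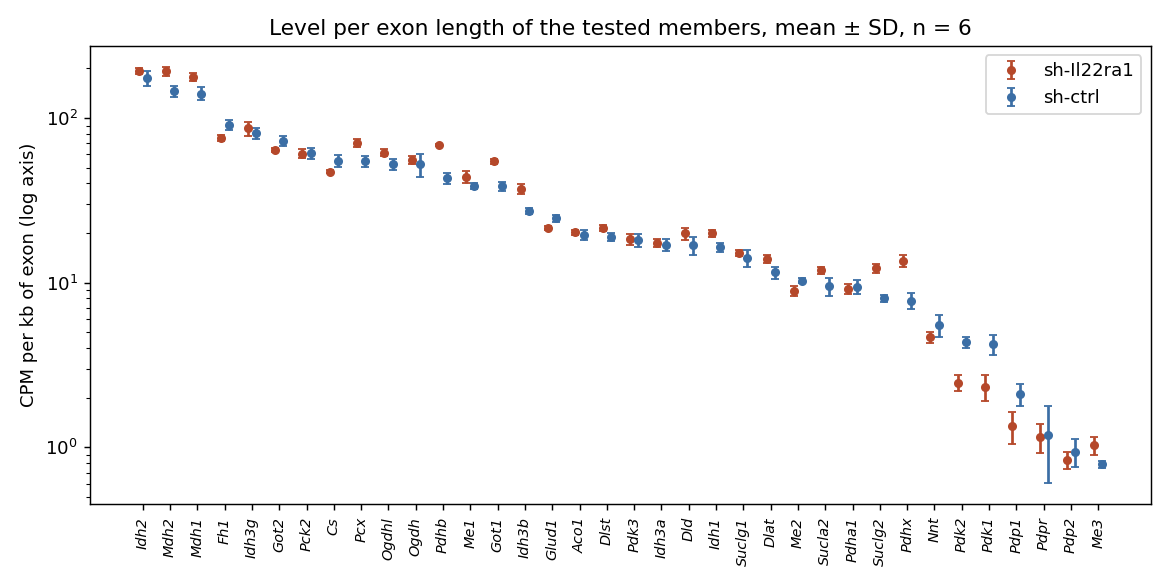
Mean level per kb of exon ± SD (n = 6 each) of the 36 tested members on a log axis, ordered by the sh-ctrl level, with sh-Il22ra1 to the left of sh-ctrl for each gene. Idh2, Mdh2 and Mdh1 lead in both groups, and Pdk1, Pdk2 and Pdp1 are among the lowest.

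Within groups the members varied more in sh-ctrl: the SD of log2(CPM + 0.5) was larger there for 27 of the 36 tested members, with a median SD of 0.0879 in sh-Il22ra1 and 0.116 in sh-ctrl. This was not particular to the members. Over the tested genes, the chi-square per degree of freedom between 2 libraries of a group was 3.95 to 13.3 in sh-Il22ra1 and 5.17 to 45.9 in sh-ctrl. Sh-ctrl replicate 4 was the lowest sh-ctrl library for 9 members and the highest for 9 others, and replicate 1 the lowest for 7 and the highest for 8. Replicate 2 was the lowest for 10, among them Pdhx, Suclg2 and Sucla2, and replicate 3 for 0. In sh-Il22ra1, replicates 1 and 2 were each the lowest library for 11 members.

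**Figure D5:**
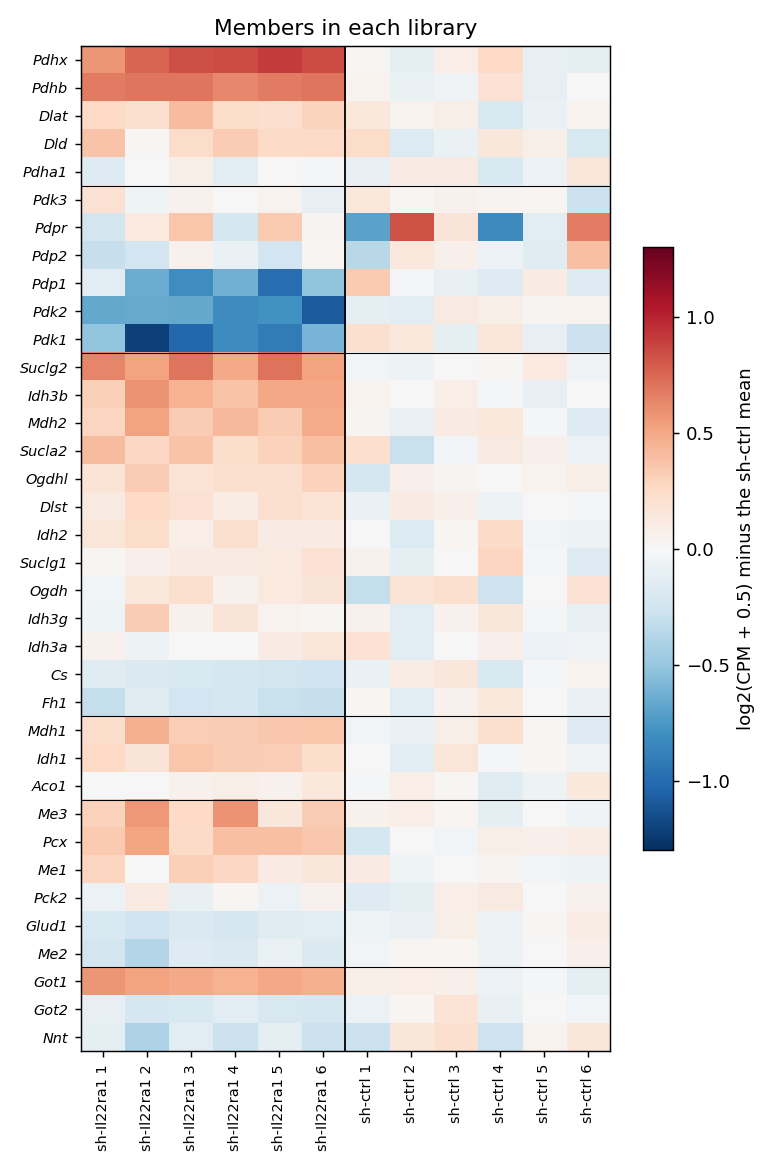
Log2(CPM + 0.5) of the 36 tested members in each library minus the mean of the sh-ctrl libraries, grouped by role, with sh-Il22ra1 libraries on the left and sh-ctrl libraries on the right of the line. Pdhx, Pdhb, Suclg2 and Got1 are higher and Pdk1 and Pdk2 lower in all 6 sh-Il22ra1 libraries, and Pdpr is uneven among sh-ctrl libraries.

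Other genes of the pathway were read from lists in the same fit, in which 25.4% of all genes tested were higher and 26.5% lower. Succinate dehydrogenase, which catalyses the step between succinyl-CoA ligase and fumarase, had all 4 subunit genes higher, and of 8 genes with its assembly factors 7 rose and 1 fell. Sdhc rose to 199 CPM ± 16.2 in sh-Il22ra1, against 136 CPM ± 10.9 in sh-ctrl (SD, n = 6 each; log2 0.54, SE 0.0673), and Sdha (0.38) and the assembly factor gene Sdhaf1 (0.63) rose too. Of the carriers for pyruvate and cycle intermediates, 2 of 8 tested rose, 1 fell and 5 did not pass. Mpc2, a subunit of the mitochondrial pyruvate carrier (0.31), and the glutamate carrier gene Slc25a22 (0.22) were higher, and Slc25a1, which exports citrate, was lower (-0.25). Lipoate is the cofactor attached to the proteins of Dlat, Pdhx and Dlst, and of 13 genes for its synthesis and iron-sulfur supply 8 rose, 3 fell and 2 did not pass. The 3 falls were Isca2 (-0.83), Isca1 (-0.42) and Iba57 (-0.47), each without overlap between groups. The groups overlapped for each of the 8 genes of this list that rose. Among all genes tested, 13.5% were higher and 14.6% lower without overlap.

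The counts of the next lists stand beside 51.9% of all genes tested that were called. Of 6 genes of the sister 2-oxoacid dehydrogenases, 1 rose, 2 fell and 3 did not pass. Bckdk, the kinase that inactivates the branched-chain dehydrogenase much as PDKs inactivate pyruvate dehydrogenase, fell to 78.8 CPM ± 4.002 in sh-Il22ra1, against 152 CPM ± 9.87 in sh-ctrl (SD, n = 6 each; log2 -0.95, SE 0.0580, edgeR adjusted p = 3.06e-10). Bckdha, its substrate, rose (0.43) and the core gene Dbt fell (-0.62). Among 10 genes for the supply of pyruvate and glutamate and the cytosolic use of citrate, 4 rose, 1 fell and 5 did not pass. Ldhb rose most, to 70.7 CPM ± 7.07 in sh-Il22ra1, against 19.99 CPM ± 2.80 in sh-ctrl (SD, n = 6 each; log2 1.82), followed by the alanine transaminase gene Gpt2 (0.93) and the glutamine synthetase gene Glul (0.68). The mitochondrial deacylases Sirt3 (0.33) and Sirt4 (0.27), which act on dehydrogenases of this pathway in mice, rose and Sirt5 did not pass. Of 9 tested regulators 1 rose, 4 fell and 4 did not pass: the estrogen-related receptor gene Esrra rose (0.94), and Ppard (-0.88) and Hif1a (-0.69) were the falls with the smallest p.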

How the data were processed

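Per the submitters' processing notes, HISAT2 2.0.5, HTSeq and the mm10 build were used; no source used here gives the annotation, the strand setting or the counting options. The deposited sample files hold whole-number read counts per gene symbol, without normalization, and a deposited table of the series holds CPM, whose values gave whole reads for 100% of entries (tolerance 0.001) equal to the counts; edgeR on those reads called 6795 genes. Groups and replicate numbers came from sample titles. Rows of unassigned reads, 8.71% to 17.3% of a library for reads without an alignment, were left out.

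Counts were fitted in R 4.3.3 with edgeR 4.0.16 (filterByExpr with a minimum count of 10 and total of 15, TMM, glmQLFit and glmQLFTest, two-sided, group only, Benjamini-Hochberg over 13102 genes). The SE is the size of the log2 fold change over the square root of F. In a simulation with these libraries' means and spreads, 12902 of 13102 genes were left unchanged. Of the changed genes, 74.6% of those changed 1.5-fold and 32.8% of those changed 1.3-fold were called. In the data 6795 genes were called, so the simulation does not give the recovery at that many changes. Ratios used log2(CPM + 0.5) and all 924 splits of 6 against 6 in Python 3.11.15. Alternatives were RLE, upper-quartile or reduced scaling, DESeq2 1.42.0, limma-voom (limma 3.58.1), other filters, the replicate number as a block, offsets from splines (4 degrees of freedom) on exon length and GC content, and leaving out libraries. Exon lengths came from GENCODE M21 (GRCm38, the mm10 build), which matched 23384 of 24421 symbols by name and 669 by synonym.

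The members, lists, pairs and alternatives were chosen with earlier results of these data known. All members are named; 20 called members with the smallest p, and each Pdk gene, have lowest, median and highest values, and up to 3 called genes of each further list are named. No 2 libraries of a group agreed within sampling noise (chi-square per degree of freedom at least 3.95).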

Additional observations from a re-analysis of the deposited data

Results flagged for a closer look

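Single libraries stood far from the other 5 of their group in 7 of 120 sets of 6 values, where chance gives about 1 in 20. In sh-ctrl, Suclg2 was at 40.7 CPM in replicate 5 (others 35.6 to 37.5), Ogdhl at 185 CPM in replicate 1 (others 217 to 230) and Pdk3 at 38.1 CPM in replicate 6 (others 47.0 to 50.7). Sh-ctrl replicate 4 had a log2 ratio of -0.41 for Pdhx to Dlat (others -1.04 to -0.86) and 3.55 for Idh2 to Idh1 (others 3.16 to 3.29). Sh-ctrl replicate 3 had 15963 genes with a read (others 16140 to 16207), and sh-Il22ra1 replicate 2 had 6.82% of reads at low alignment quality (others 3.99% to 4.79%).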

How the results depend on the processing

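The counts of members called ranged from 15 to 18 higher and 7 to 9 lower over 24 alternatives, against 16 and 9. The median log2 fold change of the tested members was 0.10 and lay between 0.085 and 0.13 when 1 library was left out; it was 0.13 with length and GC offsets, 0.13 with the replicate block and those offsets, and 0.13 without sh-ctrl replicates 1 and 4 together. These offsets moved the median of all tested genes to 0.04. Genes called over the transcriptome ranged from 2881 to 4438 higher and from 3230 to 4146 lower. Of the members' calls, those of Dld, Got2 and Nnt were lost and those of Idh2, Ogdh and Suclg1 gained under some alternative, and no called member changed sign; the cause was not tested. Il22ra1 stayed lower in every alternative, by a difference of -0.73 to -0.59 CPM. Replicate numbers are not said to pair libraries, and same-numbered libraries had correlations of deviations from -0.03 to 0.23, so the block is an alternative only; with it 16 members were higher and 9 lower. For the ratios, signed differences within replicate numbers gave an exact adjusted p of 0.0556 for each of the 9 that had passed, each at the smallest p that sign changes of 6 differences allow. Members under about 100 reads a library, such as Pdpr with 37 to 154, are the least precise.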
